A study of Homo sapiens with 9 samples.

Results

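TP63 encodes p63, a transcription factor of the p53 family that stratified epithelia need for their basal cells. The long isoforms start at the first promoter, and the short, N-terminally truncated isoforms start at a second promoter inside the gene and are the main form in basal cells. In pancreatic cancer the short isoform marks the squamous subtype. ZEB1 is a zinc-finger repressor of epithelial genes that drives the epithelial-to-mesenchymal transition and binds E-box letters such as CACCTG. CTCF is a zinc-finger protein found at insulators and at the borders of chromatin loops.

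The TP63 locus was taken as the 1 Mb of hg19 chromosome 3 from 189000000 to 190000000, and every peak of the 5 deposited peak lists that overlapped it was a member. There were 47 such peaks among 47426 in all. TP63 lies on the plus strand, with bounds set at 189349000 and 189615000 (266 kb) and the short isoform start near 189507000. These bounds are rounded, and isoforms that begin outside them were not considered. The locus was chosen by its number of ZEB1 peaks, high in MiaPaCa2 and 0 in RKO, so that density and that absence are given as description and carry no test.

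Chromatin immunoprecipitation with sequencing had been done for ZEB1 in 4 samples and for CTCF in 1. The delta-Repeat clone is a single clone of MiaPaCa2, electroporated with 2 plasmids carrying the Cas9 nickase and pairs of guide RNAs against a repeated stretch upstream of the MIR200A and MIR200B genes. The WT clone is a single control clone of MiaPaCa2, isolated by dilution after electroporation with Cas9-nickase plasmids. Unmodified MiaPaCa2 is a pancreatic ductal adenocarcinoma line and unmodified RKO is a colon carcinoma line, both untreated. CTCF was mapped in unmodified MiaPaCa2. Both clones shared 1 lot of the ZEB1 antibody, while MiaPaCa2 and RKO each had another lot. With 1 peak list per condition there was no replicate error to compare a difference with. Peak lists also hold no measure of cell identity, so the labelled lines were taken as given. The whole lists held 2160 peaks (delta-Repeat clone), 1515 (WT clone), 4804 (MiaPaCa2), 7193 (RKO) and 31754 (CTCF), and read depth is unknown.

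Few of the ZEB1 peaks lay in the gene the locus is named for. The locus held 5 ZEB1 peaks in the delta-Repeat clone, 6 in the WT clone, 23 in unmodified MiaPaCa2 and 0 in RKO, and 13 CTCF peaks. Of the 23 MiaPaCa2 ZEB1 peaks, 14 had their summit upstream of TP63, 2 inside it and 7 downstream of it. TP63 made up 26.6% of the locus and held 8.7% of these peaks. Among the clone peaks, 0 of 5 in the delta-Repeat clone and 1 of 6 in the WT clone were in the gene. In the RefSeq gene order of the assembly GRCh38.p14, the protein-coding neighbours of TP63 are TPRG1 on the upstream side and P3H2, a collagen prolyl 3-hydroxylase, on the downstream side. Positions of these neighbours in hg19 were not used here, so no peak is assigned to them.

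**Figure D1:**
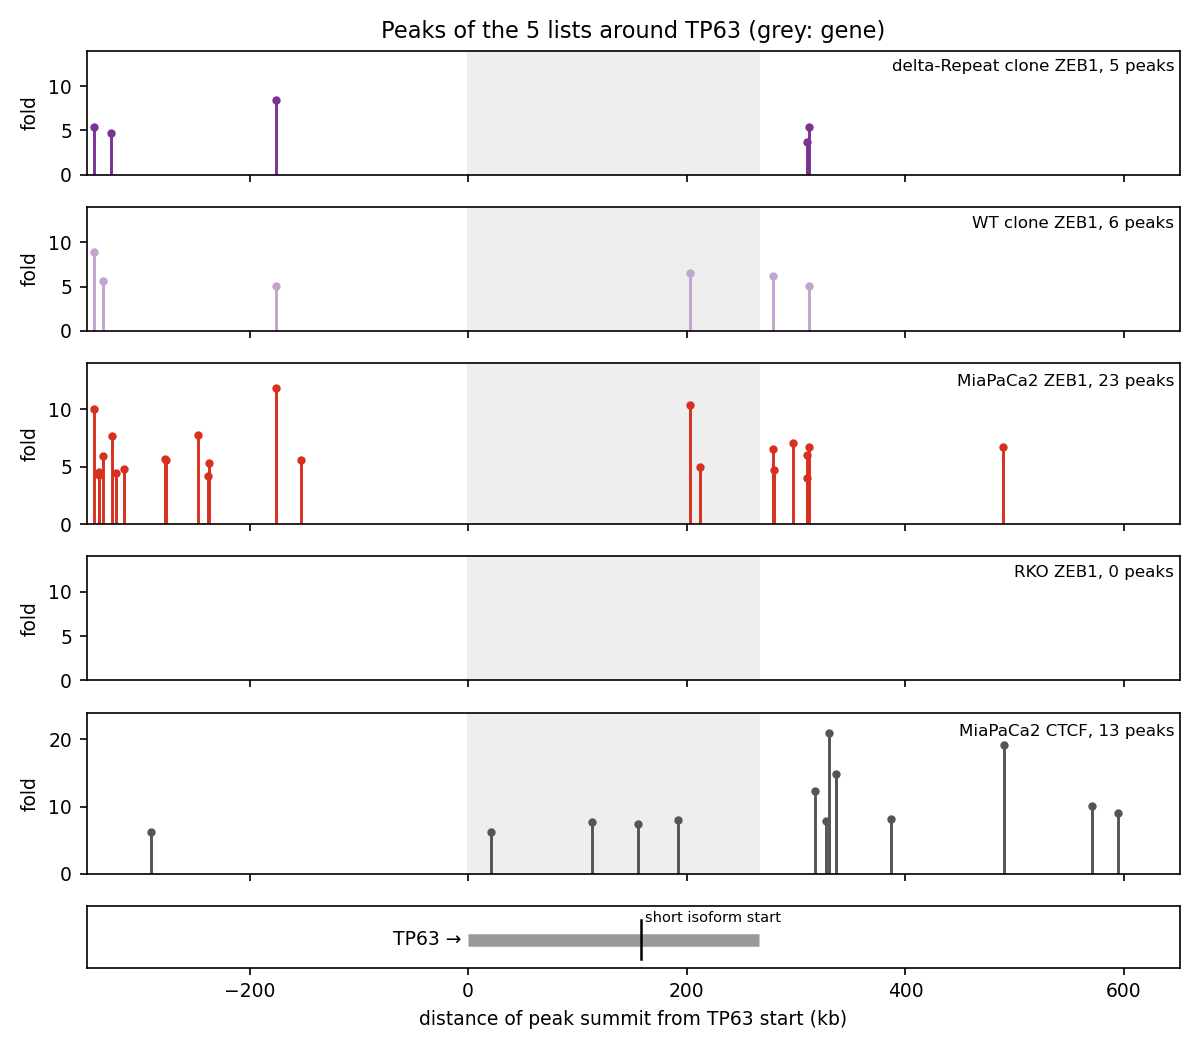
Peak summits of the 5 lists by distance from the TP63 start in kb (x axis), with the authors' fold enrichment as height (y axis). The gene is in grey and the short isoform start is a vertical line. The ZEB1 panels share an axis range and the CTCF panel has a larger one, but folds of different lists are not comparable. Of the 23 MiaPaCa2 ZEB1 peaks 14 lie upstream of the gene, 2 inside it and 7 downstream, RKO has 0, and 4 of the 13 CTCF peaks lie in the gene.

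Neither TP63 promoter carried a ZEB1 peak. The MiaPaCa2 summit nearest to the gene start lay 153 kb upstream of it (189195583 to 189196062, fold 5.58). Fold here is the enrichment at the summit over background that the authors' peak caller gave. The nearest clone summits lay 176 kb upstream in each clone. The MiaPaCa2 summit nearest to the short isoform start lay 45.0 kb downstream of it. No CTCF summit lay within 1 kb of the gene start either, and the nearest was 21.0 kb inside the gene. A CTCF summit did lie 2.39 kb before the approximate short isoform start (189504418 to 189504827, fold 7.47).

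The promoter that RefSeq gives for TP63 is shown because no list had a summit within 1 kb of the gene start in hg19. It spans chr3:189631139-189631438 on the plus strand of GRCh38.p14, a build whose positions cannot be set beside the hg19 peaks. The bases in capitals are the 50 that follow the start site, after 250 in front of it.
TP63 promoter: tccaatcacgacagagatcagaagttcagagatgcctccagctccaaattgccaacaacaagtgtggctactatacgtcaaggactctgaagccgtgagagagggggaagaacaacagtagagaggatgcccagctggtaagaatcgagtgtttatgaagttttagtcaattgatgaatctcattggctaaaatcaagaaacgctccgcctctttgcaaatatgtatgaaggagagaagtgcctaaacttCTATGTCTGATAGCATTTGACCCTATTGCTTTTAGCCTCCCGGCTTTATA
The E-box CACCTG, or CAGGTG on the other strand, occurred 0 times in these 300 bases. It occurred in 20.6% of 35116 RefSeq promoters of the same length. The shorter CACCT or AGGTG, which is part of the E-box, was also found 0 times, against 51.6% of promoters. This says only that these letters are not in this window. The second promoter, of the short isoforms, was not read for them. The bases under the peaks were not read, because no hg19 genome was used here.

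Upstream of TP63 the ZEB1 peaks of MiaPaCa2 formed 5 groups, with summits more than 10 kb apart taken as separate. The farthest group was also the most crowded. It held 7 peaks whose summits spanned 27.6 kb, from 342 to 314 kb before the gene start (189006617 to 189034604). In the whole MiaPaCa2 list 4 of 3918 such groups had 7 or more peaks, and the most crowded had 8. Folds within this group ran from 4.30 to 9.99, and its strongest peak was its first (189006617 to 189007459, rank 955 of 4804). The next groups held 2 peaks 277 kb before the gene (189071501 to 189072302) and 3 peaks between 247 and 237 kb before it (189101486 to 189112312). The 2 nearest to the gene were single peaks, 176 kb and 153 kb before its start. The first of these (189172904 to 189173788) was the strongest of the locus, with a fold of 11.9, and at 885 bp was also its widest MiaPaCa2 peak.

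Inside the gene, MiaPaCa2 had a pair of ZEB1 peaks 9.39 kb apart, both downstream of the short isoform start. The stronger lay from 189551797 to 189552248, 203 kb past the gene start and 45.0 kb past the short isoform start. Its fold of 10.4 ranked 864, second within the locus. The other lay from 189561008 to 189561549, 54.4 kb past the short isoform start, with rank 4090 and a fold of 4.996. The part of the gene in front of the short isoform start, 158 kb long, held 0 ZEB1 peaks in any of the 4 ZEB1 lists and 3 CTCF peaks.

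Downstream of TP63, 6 of the 7 peaks lay within 46.0 kb of the gene end. A pair began 12.6 kb past the end (189627443 to 189629173, folds 6.52 and 4.70). A single peak followed 31.3 kb past the end (189646125 to 189646409, fold 7.04). A group of 3 lay between 43.9 and 46.0 kb past it (189658731 to 189661177, folds from 4.03 to 6.71). The seventh stood alone, 223 kb past the gene end (189838358 to 189838629, fold 6.73), and was the one ZEB1 peak of the locus that overlapped a CTCF peak.

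Most members had a close neighbour. Of the 23 MiaPaCa2 peaks, 19 had another summit of the same list within 10 kb (82.6%), against 32.4% over the whole MiaPaCa2 list. Within 1 kb the count was 6 (26.1%), against 14.2%. The median distance between consecutive summits was 8.51 kb, while the longest was 356 kb, from the last upstream peak to the first peak inside the gene. The crowding is what the locus was chosen for. Joining peaks under 1 kb apart turned the 23 peaks into 19 regions.

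Most MiaPaCa2 peaks of the locus were among the weaker ones of their list. The median fold of its MiaPaCa2 peaks was 5.65, below the 6.53 of the whole list, and 15 of the 23 were under that list median. None of the 23 was among the 500 strongest MiaPaCa2 peaks, and 3 were among the 1000 strongest. With the list cut into 4 classes of equal size by fold, 3 fell in the strongest, 5 in the next, 6 in the third and 9 in the weakest. The 5 with the highest fold had folds of 11.9, 10.4, 9.99, 7.73 and 7.67. The 5 with the lowest fold had 4.03, 4.21, 4.30, 4.41 and 4.49, and their ranks lay between 4420 and 4664 of 4804. Requiring a fold of at least 5 and a −log10 q of at least 10 kept 8 of the 23.

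The clone peaks of the locus were also mostly among the weaker ones of their lists. With each list cut into the same 4 fold classes, 4 of 5 delta-Repeat clone peaks and 3 of 6 WT clone peaks fell in the weakest. Neither clone had a locus peak in the strongest class. In the delta-Repeat clone the median fold was 5.42 in the locus and 7.06 in the whole list, and in the WT clone it was 5.93 in the locus and 7.46 in the whole list. The best rank was 705 of 2160 in the delta-Repeat clone and 508 of 1515 in the WT clone. Median widths in the locus were 341 bp (delta-Repeat clone), 227 bp (WT clone) and 314 bp (MiaPaCa2), against whole-list medians of 336.5 bp (delta-Repeat clone), 338 bp (WT clone) and 379 bp (MiaPaCa2). In the WT clone 5 of 6 members were narrower than the list median. In MiaPaCa2 13 of 23 were, close to the even split that a median gives by definition. In the delta-Repeat clone the locus median was slightly above that of the list. No common width trait is read from these medians. The MiaPaCa2 members ranged from 200 to 885 bp.

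**Figure D2:**
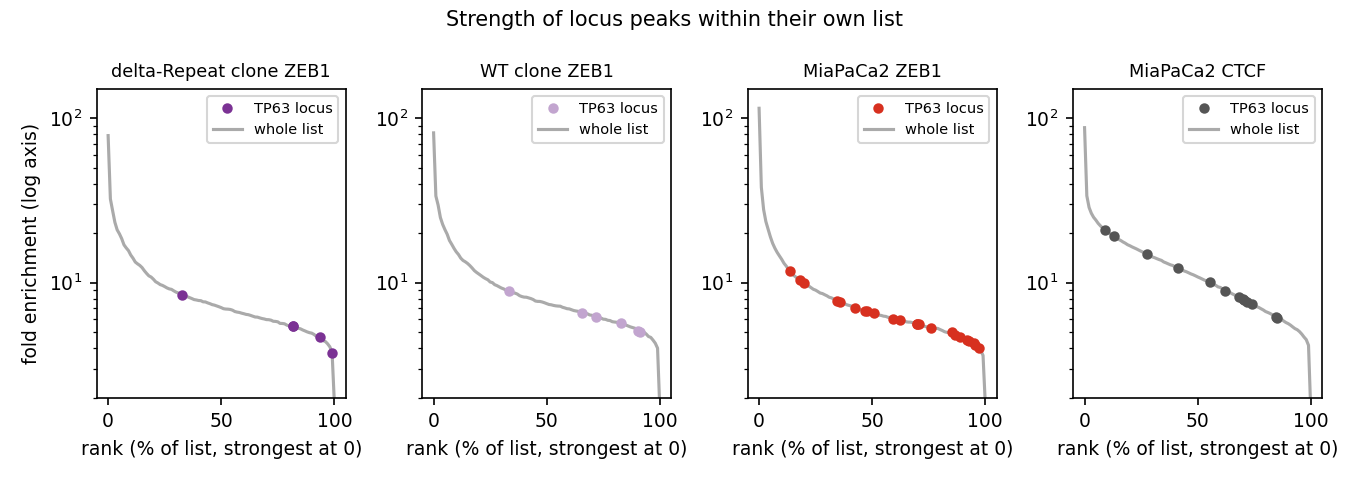
Fold enrichment (y axis, log scale) against rank within its own list as a percentage with the strongest at 0 (x axis), for locus peaks (points) and the whole list (line). No ZEB1 peak of the locus is among the strongest 10%: the best stands at 13.5% of the MiaPaCa2 list, 32.6% of the delta-Repeat clone list and 33.5% of the WT clone list.

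How many of the MiaPaCa2 peaks recurred in the clones depended on the rule. Counting an overlap of at least 1 bp, 4 of the 23 were in the delta-Repeat clone list (17.4%, exact 95% interval 4.95 to 38.8), against 38% of all MiaPaCa2 peaks. In the WT clone list it was 6 of 23 (26.1%, 10.2 to 48.4), against 29.3% of all. Both clones held 3 of 23 (13.0%, 2.78 to 33.6), against 22.4%, and either clone held 7 of 23, against 45%. The MiaPaCa2 list was also cut to the length of the clone list, keeping the peaks of highest −log10 q rather than of highest fold. Then 4 of the 9 locus peaks left were in the delta-Repeat clone (44.4%) and 4 of the 6 left were in the WT clone (66.7%). Asking for an overlap of 50% of both peaks gave 3 of 23 in the delta-Repeat clone, 1 of 23 in the WT clone (4.35%) and 0 in both. Whole-list shares for the cut list and for the 50% overlap are not given. The counts under these rules therefore cannot be called high or low. The share of the whole list at 1 bp lay inside each of the intervals, but no agreement is read from that. The intervals cover counting error only and take neighbouring peaks as independent. The 23 peaks were also chosen through their density in the MiaPaCa2 list. With the shares of the 4 fold classes of the whole list, 23 peaks of these strengths would give 6.60 in the delta-Repeat clone, 4.62 in the WT clone and 3.17 in both.

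The 3 places found in both clones were the outermost upstream peak, the strongest peak and the last peak of the downstream group. At the outermost upstream place the delta-Repeat clone had a peak of fold 5.42 (189006879 to 189007092, rank 1767 of 2160) and the WT clone one of fold 8.85 (189006786 to 189007130, rank 508 of 1515). The MiaPaCa2 peak there was the group's strongest, with a fold of 9.99. At the second place, 176 kb before the gene, the delta-Repeat clone had its strongest peak of the locus, with a fold of 8.42 (189172936 to 189173675, rank 705). The WT clone had its weakest there, with a fold of 5.01 (189173246 to 189173457, rank 1379). So the upstream place that led in the WT clone was not the one that led in the delta-Repeat clone. With 1 list per clone this difference was not tested, and folds of different lists are not on 1 scale. At the third place, about 46.0 kb past the gene end, the folds were 5.42 in the delta-Repeat clone (189660863 to 189661203) and 5.12 in the WT clone (189660858 to 189661096).

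The other clone peaks were each in 1 clone. The delta-Repeat clone alone had a peak 44.2 kb past the gene end (189659007 to 189659451), with rank 2141 of 2160 and a fold of 3.73. It also had a peak from 189022248 to 189022497 (fold 4.69) that overlapped no MiaPaCa2 peak and lay 261 bp in front of one. The WT clone alone had peaks from 189015176 to 189015443 (fold 5.66), from 189551904 to 189552103 inside the gene (fold 6.57) and from 189627471 to 189627685 past its end (fold 6.19). The delta-Repeat clone list had no peak at these places. Between the clones, 3 of 5 delta-Repeat clone peaks had a WT clone counterpart (51.3% over the whole list), and 3 of 6 WT clone peaks had one in the delta-Repeat clone (73.4% over the whole list). In the MiaPaCa2 list were 4 of the 5 delta-Repeat clone peaks (86.6% over the whole list) and all 6 WT clone peaks (95.2%).

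Where peaks recurred, most summits lay close together, as they did over the whole lists. Between the delta-Repeat clone and MiaPaCa2 the 4 summit distances ran from 7 to 63 bp (median 21.5, whole list 59). Between the WT clone and MiaPaCa2 the 6 ran from 2 to 102 bp (median 15, whole list 57). From the delta-Repeat clone to the WT clone the 3 ran from 25 to 112 bp (median 47, whole list 50). The WT clone peak inside the gene had its summit 6 bp from that of MiaPaCa2. By the median, the recurring MiaPaCa2 peaks of the locus were stronger and wider than the others. The same comparison over the whole list is not given, so this is not read as particular to the locus. The 7 found in either clone had a median fold of 6.71 and a median width of 542 bp, against 5.16 and 276 bp for the 16 found in neither. The 2 sets overlapped, since folds ran from 5.92 to 11.9 in the first and from 4.03 to 7.73 in the second.

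**Figure D3:**
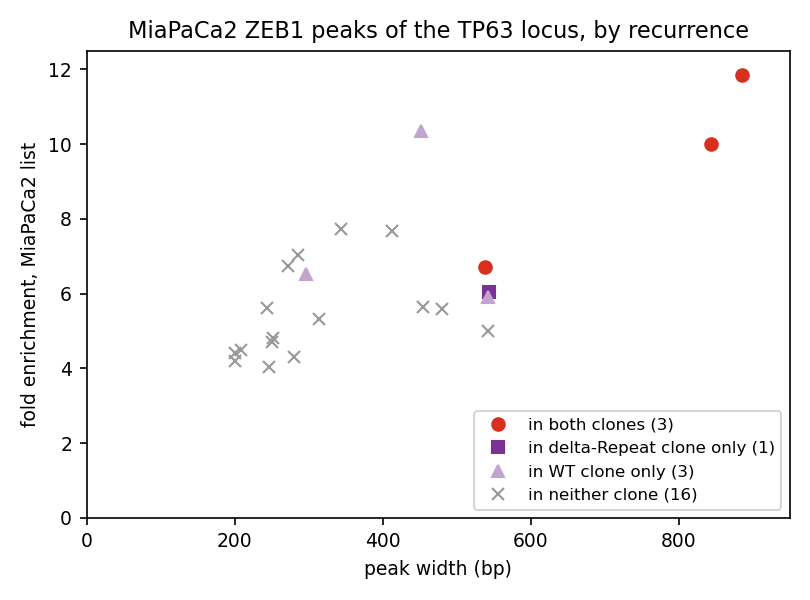
Width in bp (x axis) and fold enrichment in the MiaPaCa2 list (y axis) of the 23 MiaPaCa2 ZEB1 peaks of the locus, marked by recurrence. The 2 widest peaks, 843 and 885 bp, are in both clones, and all 16 peaks found in neither clone have a fold of 7.73 or less.

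RKO had no ZEB1 peak in the locus although its list was the longest of the 4 ZEB1 lists. None of the 23 MiaPaCa2 peaks was in the RKO list, against 57.4% of all MiaPaCa2 peaks. This count of 0 was fixed by the choice of the locus, so no interval is given for it. None of the 5 delta-Repeat clone peaks (71.1% over the whole list) and none of the 6 WT clone peaks (76.8%) was in RKO. The absence was one reason for choosing the locus and nothing is read from these shares. Read depth is unknown and copy number was not measured here, so the list does not show that ZEB1 is missing there in RKO.

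The stretch without RKO peaks reached well past TP63. The nearest RKO peaks ended 2.48 Mb before the locus and began 2.63 Mb after it. Between their summits lay 6.11 Mb with 28 MiaPaCa2 ZEB1 peaks, the most of the 7170 stretches between consecutive RKO summits. The stretch ranked 51 by length, so longer ones held fewer MiaPaCa2 peaks. Of its MiaPaCa2 peaks, 23 were those of the locus. The locus was chosen for many MiaPaCa2 and no RKO peaks, so this first place only describes that choice. Before the locus, MiaPaCa2 and both clones were empty over the same 2.48 Mb, up to a place with a peak in all 4 ZEB1 lists. The MiaPaCa2 peak at this place (186524178 to 186524749) had a fold of 10.2. The first MiaPaCa2 peak inside the locus began 6.62 kb past its edge. Just past the other end, MiaPaCa2 had a peak from 190039788 to 190040312 (fold 6.31), 39.8 kb outside. The delta-Repeat clone also had a peak there (190039996 to 190040224, fold 4.67), and both overlapped a CTCF peak of fold 21.6.

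**Figure D4:**
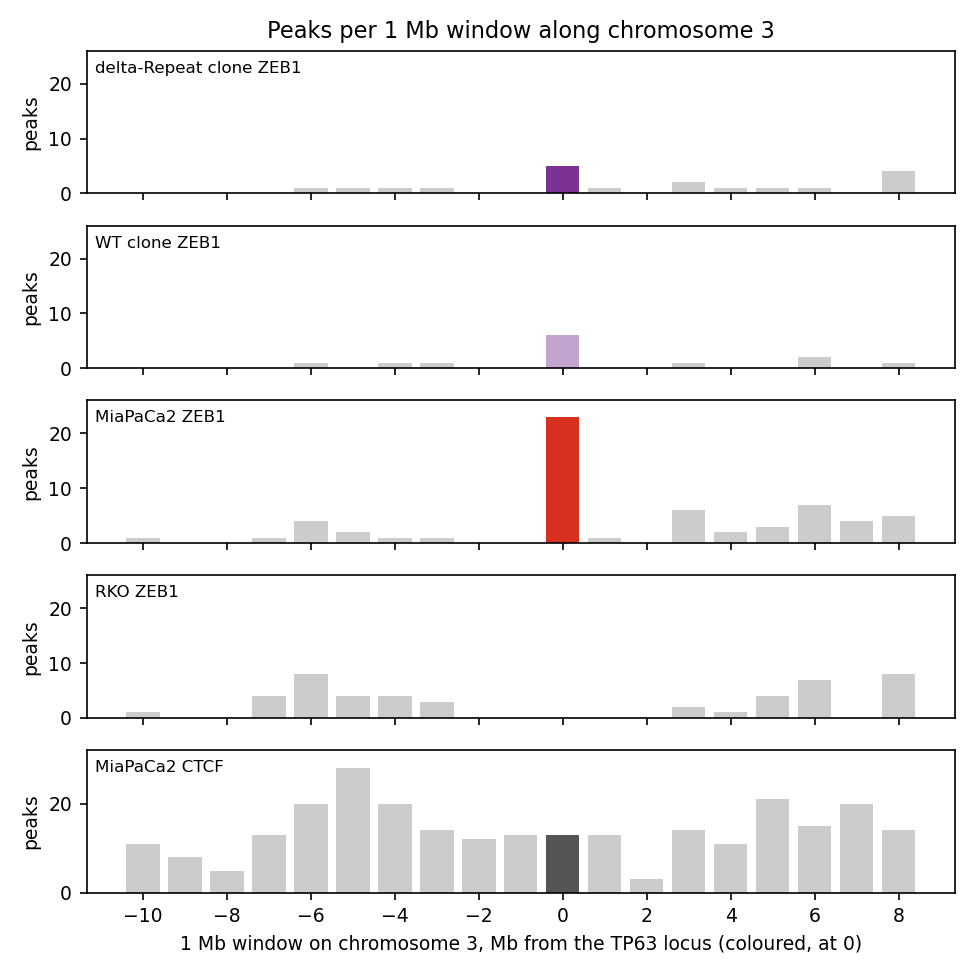
Peaks per 1 Mb window (y axis) along chromosome 3, by distance in Mb from the TP63 locus (x axis), with 1 panel per list and the locus coloured. MiaPaCa2 has 23 ZEB1 peaks in the locus and at most 7 in the other windows shown, while RKO has 0 in the locus and CTCF has 13.

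Among 3065 windows of 1 Mb, the locus shared the first rank by MiaPaCa2 ZEB1 peaks with 3 other windows of 23. Those were 1 on chromosome 14 (105000001 to 106000000) and 2 on chromosome 9 (139000001 to 140000000 and 140000001 to 141000000), which held 38, 70 and 48 RKO peaks. In both clones too, none of the 198 windows of chromosome 3 had more ZEB1 peaks than the locus. Genome-wide, its rank was 36 in the delta-Repeat clone and 16 in the WT clone. Its CTCF count ranked 924, with 13 peaks against a median of 9 per window. First rank in MiaPaCa2 depended on how windows were drawn. It became 6 with windows of 500 kb, 18 with windows shifted by 500 kb and 12 with the stricter threshold.

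The windows with the pattern most like that of the locus were ordered by MiaPaCa2 minus RKO peaks. The locus led with 23. Next came chromosome 8 from 128000001 to 129000000 (22 in MiaPaCa2, 6 in RKO), chromosome 1 from 8000001 to 9000000 (18 and 5), chromosome 20 from 52000001 to 53000000 (12 and 0), chromosome 2 from 235000001 to 236000000 (12 and 1) and chromosome 5 from 57000001 to 58000000 (10 and 0). The chromosome 2 window differed from the locus in the clones, with 9 peaks in each. Of the 287 windows with at least 5 MiaPaCa2 peaks, 5 had none in RKO (1.74%), the locus among them.

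**Figure D5:**
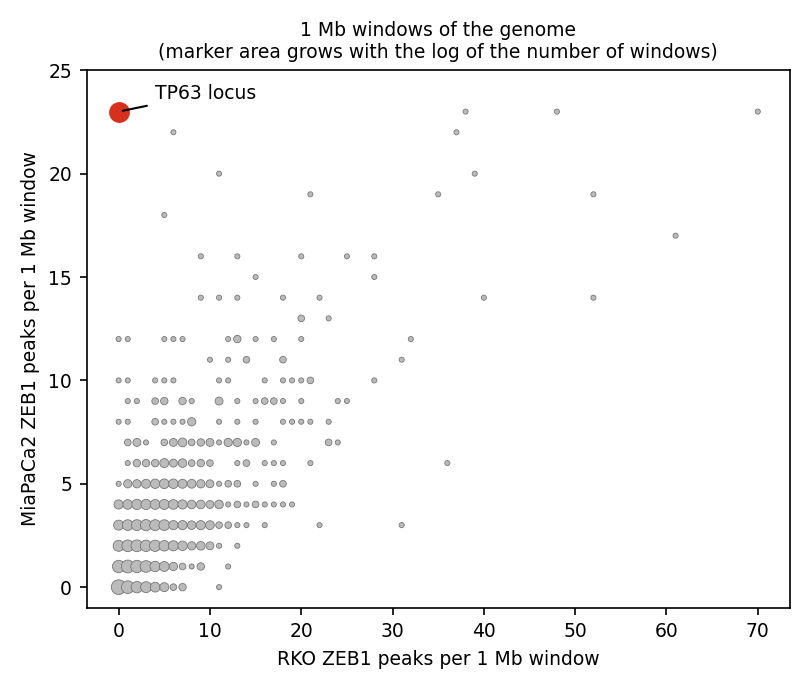
ZEB1 peaks per 1 Mb window in MiaPaCa2 (y axis) and in RKO (x axis) over 3065 windows, with marker area growing with the log of the number of windows at that point. The TP63 locus is at 23 and 0, and the other windows with 0 in RKO hold at most 12 MiaPaCa2 peaks.

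Most of the 13 CTCF summits lay in the gaps between the ZEB1 groups, which make up most of the locus. By position, 10 fell between groups and 3 past the last ZEB1 summit, one of these 322 bp past it in the CTCF peak that the last ZEB1 peak overlaps. The 6 ZEB1 groups of more than 1 peak spanned 51.4 kb together (5.14% of the locus) and held 0 CTCF summits, and from so short a span nothing is read into that count. The longest stretch without ZEB1 peaks, 356 kb from the last upstream peak to the first peak in the gene, held 4 CTCF summits, all inside TP63. The stretch of 177 kb after the downstream group held 5. The whole upstream side, with 14 ZEB1 peaks, held 1 CTCF peak (189058515 to 189058803, fold 6.15), between the first and the second ZEB1 group.

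The CTCF peaks inside TP63 were weak for their list and those past it were mixed. The 4 in the gene had folds of 6.19, 7.66, 7.47 and 7.94 from start to end, against a CTCF list median of 10.8, and ranked between 22247 and 26871 of 31754. Past the gene end, 4 CTCF peaks stood together from 189666245 to 189685542, starting 51.4 kb past the end. Their folds were 12.3, 7.87, 21.0 and 14.9. The third of them (189679177 to 189679709) was the strongest CTCF peak of the locus, with rank 2818. They began 5.44 kb after the last summit of the downstream ZEB1 group.

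ZEB1 and CTCF met once. Of the 23 MiaPaCa2 ZEB1 peaks 1 overlapped a CTCF peak (4.35%, exact 95% interval 0.11 to 21.9), against 20.2% of all MiaPaCa2 ZEB1 peaks, a share inside that interval. From the side of CTCF it was 1 of 13 peaks (7.69%), against 3.1% of the CTCF list. The CTCF peak there spanned 189838263 to 189839014, ranked 4135 with a fold of 19.1, and the 2 summits lay 322 bp apart. None of the 5 delta-Repeat clone peaks (22.7% in the whole list) and none of the 6 WT clone peaks (20.4%) overlapped a CTCF peak of unmodified MiaPaCa2. A CTCF summit lay within 10 kb of 4 of the 23 ZEB1 summits (17.4%, 4.95 to 38.8). Over the list it was 57.1%, a share outside that interval. The median distance to the nearest CTCF summit was 20.7 kb in the locus and 6.61 kb in the list. Since the crowded ZEB1 groups share their distances to CTCF, these 23 values are not independent, and the intervals do not allow for that.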

How the data were processed

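Per the submitters' processing notes, the tools were MACS2 2.1.0.20150731, SAMtools and Bowtie2 2.2.6, on GRCh37 (hg19). The control library of each peak list and any pooling are not given in the sources used here, and the 4 input samples were not analysed here. The deposited fold enrichment is a linear ratio from the authors' peak caller, and p-values and q-values were deposited as −log10. The deposited score is 10 times the −log10 q and was not used. Folds and q values were used only within their own list. Coordinates are hg19, counted from 1.

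Overlaps were counted with Python 3.11.15, numpy 2.4.6, pandas 2.3.3 and scipy 1.17.1, with a minimum of 1 bp, and drawn with matplotlib 3.10.9. On simulated lists the counts were tested against bedtools 2.31.1, and all 500 planted overlaps were found for each of 3 second lists. A position in the gene was decided by the summit. The intervals given with shares are exact Clopper-Pearson 95% intervals. No test was run, since each condition has 1 list. The locus, the gene bounds and the listing rules were chosen with earlier results of these data known. The peaks described in full were those in both clones, in a clone list or overlapping CTCF, the 5 of highest and of lowest MiaPaCa2 fold, and the ends of each group. The windows were the 5 with the largest MiaPaCa2 minus RKO count. The alternatives are given in the closing section. RefSeq tables of GRCh38.p14 gave the promoter and the gene order.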

Additional observations from a re-analysis of the deposited data

How the results depend on the processing

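No paired analysis was possible because no condition has a second peak list. The counts of peaks followed the threshold and the bounds by construction. With a fold of at least 5 and a −log10 q of at least 10, the locus kept 1 delta-Repeat clone, 1 WT clone and 8 MiaPaCa2 peaks. Inside TP63 alone there were 0 delta-Repeat clone, 1 WT clone, 2 MiaPaCa2 and 4 CTCF peaks. With 50 kb added on each side, bounds chosen after seeing the data, there were 2, 3, 8 and 4. Asking for 50% of both peaks left 4.35% of MiaPaCa2 peaks in the WT clone, 0% in both clones and 0% with CTCF. Summits within 100 bp also left 0% with CTCF, since the 1 overlapping pair had summits 322 bp apart. The stricter threshold left 0% of 8 MiaPaCa2 peaks in both clones and 0% with CTCF. Both follow from what it removed. The 1 peak it kept in each clone lay at a different place. The ZEB1 peak that overlaps CTCF had a −log10 q of 8.80 and did not pass. With lists of equal length, 44.4% of 9 MiaPaCa2 peaks were in the delta-Repeat clone and 66.7% of 6 in the WT clone. That cut kept the MiaPaCa2 peaks of highest −log10 q, not those of highest fold. Shares of the whole list under these alternative rules are not given. The rank of the locus among windows was 6 (500 kb), 18 (shifted) and 12 (stricter) in place of 1, and the cause was not tested. The other 21 planned values and 1 added value stayed within their interval or within 1.5 times the count. Those for RKO were 0 by construction, since its list has no peak in the locus. Unknown read depth limits every statement on an absent peak.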
